A study of Homo sapiens with 12 samples.

Results

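The genes described here encode enzymes of androgen metabolism or their family members, and were measured as RNA in C4-2 cells. They were taken from the gene count table by the symbols SRD5A1, SRD5A2, SRD5A3, HSD17B4, HSD17B6, HSD17B10, HSD17B11, AKR1C3, HSD3B1 and STS. No enzyme activity or steroid was measured in these libraries. All 10 symbols were present among the 56269 rows of the table. C4-2 is an established line of castration-resistant prostate cancer derived from LNCaP, so all groups are 1 line. RNA was sequenced after a 48 h transfection with small interfering RNA (siRNA), either nonspecific or against paxillin, 12 h without serum, and 24 h with ethanol vehicle or 2.5 nM dihydrotestosterone (DHT). Crossing siRNA and treatment gave 4 groups of 3 libraries, which are called nonspecific vehicle, nonspecific DHT, paxillin vehicle and paxillin DHT. Whether the 3 libraries of a group came from separate cultures is not given in the labels. The p-values therefore refer to the spread among these libraries, part or all of which may be technical.

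Active androgens are made through a chain of reductions and oxidations. Sulfatase frees dehydroepiandrosterone (DHEA) from its sulfate, a 3beta-hydroxysteroid dehydrogenase turns DHEA into androstenedione, a 17-keto reductase makes testosterone, and 5alpha-reductases make DHT, the most potent natural androgen. Other dehydrogenases of the set run the chain backwards or restore DHT from 3alpha-androstanediol. In castration-resistant prostate cancer these steps are known for sustaining androgen signalling from adrenal precursors. Several of the enzymes also have duties outside steroid metabolism, in N-glycosylation, peroxisomes, mitochondria or lipid droplets.

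Library totals ran from 11944906 to 32040465 counts, with nonspecific vehicle replicate 1 the lowest, so 1 count equalled 0.0312 to 0.0837 CPM, the count scaled to the library total. CPM are scaled by the trimmed mean of M-values (TMM). PXN, the gene of the focal adhesion adaptor paxillin, was 146 ± 6.65 CPM in nonspecific vehicle and 13.8 ± 2.51 CPM in paxillin vehicle (SD, n = 3). The androgen targets FKBP5, KLK3 and TMPRSS2 rose with DHT under both siRNAs, by 25.8-, 2.07- and 5.09-fold under nonspecific siRNA. The markers of luminal prostate cells KLK2, KLK3, FOLH1, KRT8, KRT18, EPCAM, HOXB13 and SPDEF were present in every library. Of the markers of other cells, COL1A1 (584 to 1035 counts), VWF (169 to 395), SYP (30 to 160), INSM1 (4 to 50), CYP11A1 (0 to 92) and KRT14 (0 to 16) exceeded 10 counts. The leukocyte markers together stayed at or below 0.164 CPM. Summed basal markers (KRT14, KRT5 and TP63) were 0 to 0.109 CPM in vehicle and 0.236 to 0.637 CPM in DHT libraries, with KRT5 at 0 to 1 and TP63 at 0 to 3 counts. Summed fibroblast markers, nearly all COL1A1, were 37.6 to 47.8 CPM in nonspecific vehicle, 33.8 to 37.9 in nonspecific DHT, 32.4 to 35.8 in paxillin vehicle and 24.8 to 27.3 in paxillin DHT, with COL1A2, DCN and LUM at 0 to 4 counts. Summed markers of steroid-making cells, led by CYP11A1, were 0.181 to 0.407 CPM in vehicle and 1.2 to 4.22 CPM in DHT libraries. The part of these markers in the enzyme results was not tested.

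The enzymes spanned a wide range of abundance. On the scale of CPM per kilobase of exon, HSD17B10 stood highest, at group means of 100 to 121, followed by HSD17B4 at 20.2 to 30.3 and SRD5A3 at 6.04 to 12.6. SRD5A1 at 3.58 to 4.90, HSD17B11 at 1.64 to 4.61 and STS at 2.11 to 3.41 CPM per kilobase formed the middle. HSD17B6 at 0.519 to 0.891 and HSD3B1 at 0.0654 to 0.896 were low. The group means of AKR1C3 did not exceed 0.0461 and those of SRD5A2 did not exceed 0.00282 CPM per kilobase. The order of the 3 highest was the same in all 4 groups, with no overlap between neighbours. Ranges of HSD17B11 and STS overlapped in nonspecific vehicle and paxillin DHT, those of HSD3B1 overlapped with HSD17B11 and HSD17B6 in paxillin vehicle and with AKR1C3 in nonspecific DHT, and those of AKR1C3 and SRD5A2 overlapped in nonspecific vehicle. With the longest annotated transcript as the length, STS and HSD17B11 exchanged ranks in paxillin DHT.

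**Figure D1:**
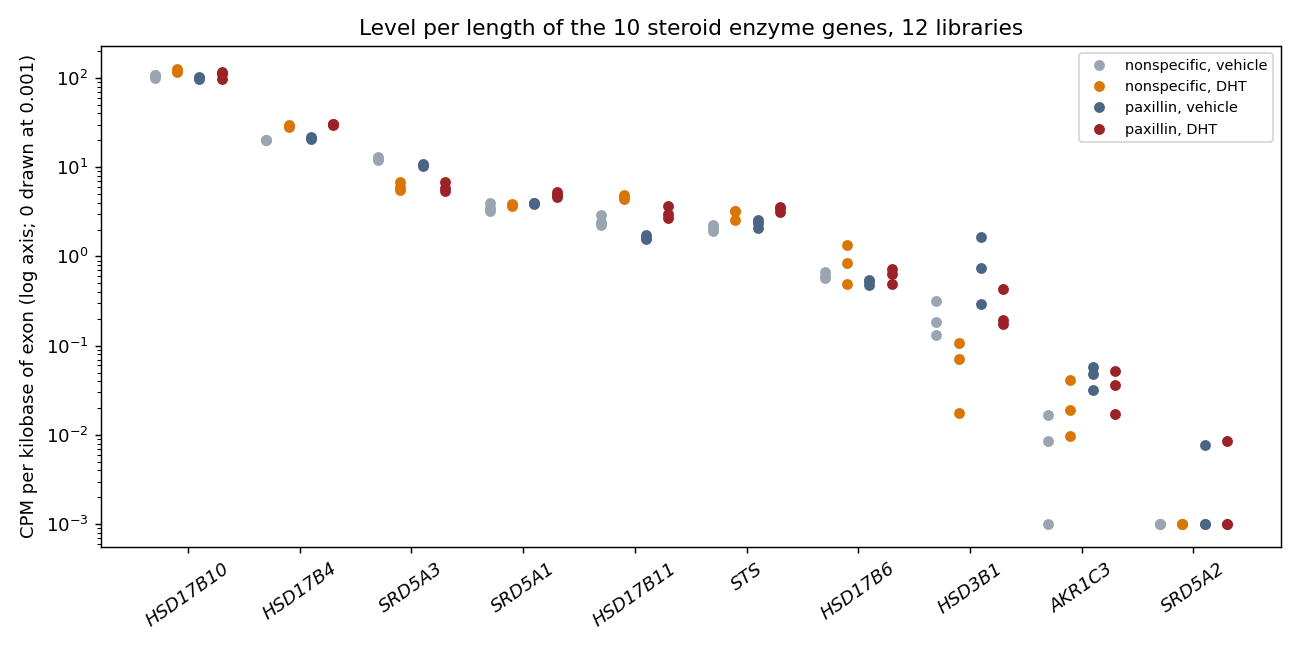
Level of the 10 genes in CPM per kilobase of exon (log axis, values of 0 drawn at 0.001), with 1 point per library and colour for the group. HSD17B10 sits near 100, HSD17B4 between 20 and 30.7, and SRD5A2 at or next to 0.

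More of the tested enzyme genes were called for DHT than for the siRNA, as was also so among all tested genes. The filter on low counts kept 8 of the 10 genes and dropped SRD5A2 and AKR1C3. Calls rest on edgeR's quasi-likelihood test of 16115 genes with an adjusted p (Benjamini-Hochberg) below 0.05. With DHT under nonspecific siRNA, 4 of the 8 rose (HSD17B4, HSD17B10, HSD17B11 and STS) and 1 fell (SRD5A3), beside 21.6% of all tested genes that rose and 18.9% that fell. Under paxillin siRNA, 4 rose (SRD5A1, HSD17B4, HSD17B11 and STS) and 2 fell (SRD5A3 and HSD3B1), beside 20.1% and 17.9% of all tested genes. The median log2 fold change of the 8 genes was 0.35 and 0.28, against -0.01 for all tested genes in both comparisons. With upper-quartile scaling the split of all genes turned from 3481 up and 3053 down to 2707 up and 3896 down under nonspecific siRNA, and from 3234 and 2886 to 2262 and 3935 under paxillin siRNA.

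Paxillin siRNA in vehicle raised 1 of the 8 (HSD3B1) and lowered 2 (SRD5A3 and HSD17B11), beside 10.7% of all tested genes that rose and 9.78% that fell. In DHT it raised SRD5A1 and lowered HSD17B11, 1 gene each way, beside 6.34% and 7.0%. With 8 genes tested, a single gene is a larger share than these percentages, so nothing is read from the counts about the enzymes as a group. The 2 DHT comparisons share no library with each other, but each siRNA comparison shares its libraries with them.

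**Figure D2:**
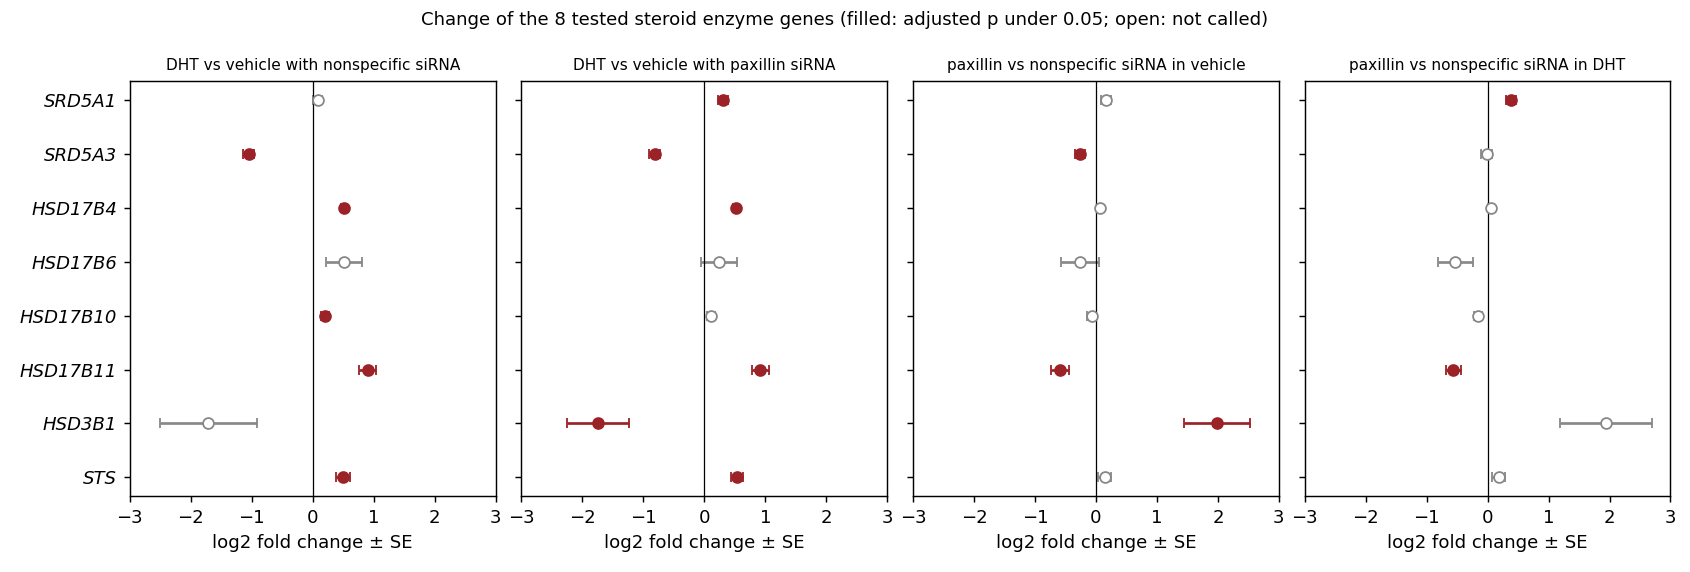
Log2 fold changes (x axis, with SE as bars) of the 8 tested genes in the 4 pairwise comparisons, filled where the adjusted p was under 0.05. SRD5A3 lies at -1.05 and -0.81 for DHT, HSD17B4 and STS lie near 0.5 in both DHT panels, and the HSD3B1 bars are the widest.

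The 5alpha-reductase genes went different ways. SRD5A1, on chromosome 5 (GRCh38 chr5:6633343-6674386, plus strand), encodes the isoenzyme that reduces testosterone and androstenedione in many peripheral tissues. SRD5A3, on chromosome 4 (chr4:55346109-55373096, plus strand), encodes a family member that reduces polyprenol to dolichol, the lipid carrier of N-glycans. Their start-site windows are shown because both are rich in CpG dinucleotides and neither holds the androgen response half-site AGAACA or its reverse complement TGTTCT. The windows run from 250 bases before to 50 after the RefSeq start (GRCh38.p14, gene strand, 5′ to 3′), and capitals mark CpG.
SRD5A1, chr5:6633190-6633489: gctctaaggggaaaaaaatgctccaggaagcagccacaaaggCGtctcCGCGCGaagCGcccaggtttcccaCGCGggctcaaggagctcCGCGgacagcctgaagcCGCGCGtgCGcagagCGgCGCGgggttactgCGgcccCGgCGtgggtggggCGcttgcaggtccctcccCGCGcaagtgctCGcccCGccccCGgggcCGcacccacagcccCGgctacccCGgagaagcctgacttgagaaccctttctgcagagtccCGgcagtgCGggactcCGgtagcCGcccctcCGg
SRD5A3, chr4:55345992-55346291: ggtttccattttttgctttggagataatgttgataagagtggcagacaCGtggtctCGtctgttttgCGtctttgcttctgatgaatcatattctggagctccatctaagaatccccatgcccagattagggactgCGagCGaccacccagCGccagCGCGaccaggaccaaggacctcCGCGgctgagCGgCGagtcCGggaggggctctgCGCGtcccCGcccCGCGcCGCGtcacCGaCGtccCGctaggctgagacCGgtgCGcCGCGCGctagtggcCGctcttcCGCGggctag
The SRD5A1 window holds 33 CpG and the SRD5A3 window 31, against a median of 14 over 35116 such windows of 27305 genes. At least 1 copy of the half-site, on either strand, lies in 14.8% of all windows.

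SRD5A3 fell with DHT in both arms. Its libraries stood at 54.0, 57.8 and 55.2 CPM in nonspecific vehicle and 24.3, 26.5 and 29.8 CPM in nonspecific DHT. They stood at 47.2, 47.5 and 45.1 CPM in paxillin vehicle and 23.8, 26.0 and 30.3 CPM in paxillin DHT. Every DHT library was below every vehicle library, and the DHT libraries of both siRNAs overlapped. The fall was -1.05 ± 0.09 (log2 fold change ± SE, adjusted p = 2.7e-08, edgeR) under nonspecific siRNA, or 2.07-fold, and -0.81 ± 0.09 (adjusted p = 6.6e-07, edgeR), or 1.75-fold, under paxillin siRNA. In these bulk samples, fewer expressing cells and less RNA per cell cannot be told apart.

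In vehicle, SRD5A3 was also lower with paxillin siRNA, at 46.6 ± 1.29 against 55.7 ± 1.92 CPM (SD, n = 3), and the groups did not overlap. The log2 fold change was -0.26 ± 0.08 (adjusted p = 0.037, edgeR). This call was lost at adjusted p of 0.051 to 0.148 without any 1 of nonspecific vehicle replicates 1, 2 and 3, nonspecific DHT replicate 2 or paxillin vehicle replicates 1, 2 and 3, while the log2 fold change stayed between -0.27 and -0.22. In DHT the difference was -0.01 ± 0.09 (adjusted p = 0.942, edgeR).

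SRD5A1 was steadier. Its libraries stood at 31.0, 26.6 and 25.2 CPM in nonspecific vehicle, 28.8, 28.2 and 30.0 CPM in nonspecific DHT, and 30.8, 30.7 and 30.0 CPM in paxillin vehicle. In paxillin DHT they stood at 35.3, 37.6 and 40.4 CPM. Paxillin DHT alone lay above all other libraries, and the remaining 3 groups overlapped or touched. SRD5A1 rose with DHT by 0.31 ± 0.08 on the log2 scale (adjusted p = 0.0041, edgeR) under paxillin siRNA, against 0.08 ± 0.08 (adjusted p = 0.441, edgeR) under nonspecific siRNA. Paxillin siRNA raised it in DHT by 0.38 ± 0.08 on the log2 scale (adjusted p = 0.0035, edgeR), and the difference in vehicle was 0.16 ± 0.08 (adjusted p = 0.185, edgeR). Without nonspecific vehicle replicate 1, the shallowest library, the difference in vehicle was 0.24 (adjusted p = 0.039, edgeR), within a range of 0.039 to 0.476 over the 20 alternatives.

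The ratio of SRD5A1 to SRD5A3 counts within a library needs no scaling between libraries, and compares change, not abundance, because the transcripts differ in length. The ratio was 0.573, 0.461 and 0.456 in nonspecific vehicle and 1.19, 1.06 and 1.01 in nonspecific DHT. It was 0.652, 0.646 and 0.665 in paxillin vehicle and 1.48, 1.45 and 1.33 in paxillin DHT. Every DHT library was above 1 and every vehicle library below 1. DHT raised the ratio 2.18-fold, with an exact two-sided permutation p of 0.005 over the 400 rearrangements within siRNA arms, the smallest they can give. With same-numbered libraries as pairs the exact p was 0.0312, the smallest of 64 sign changes. The ratio rose 2.19-fold under nonspecific and 2.17-fold under paxillin siRNA. It uses the same counts as the SRD5A1 and SRD5A3 tests above and mostly restates the SRD5A3 fall, so it is not separate evidence.

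**Figure D3:**
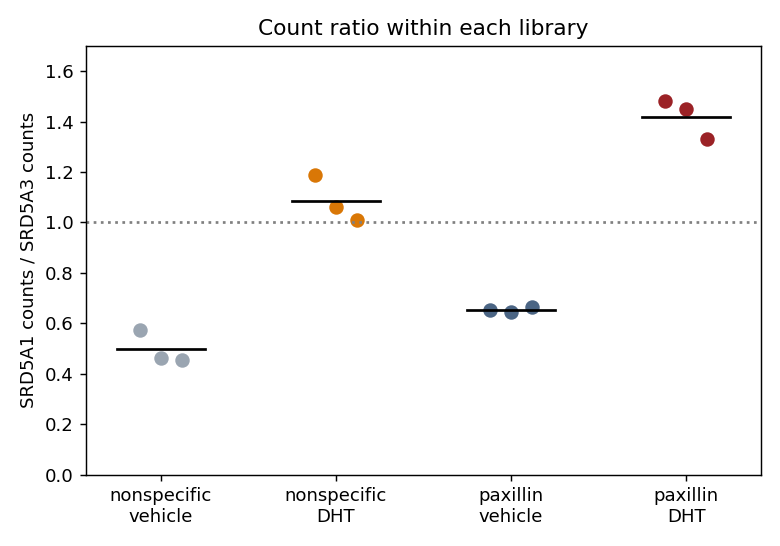
Ratio of SRD5A1 to SRD5A3 counts in each library (points) with the group mean (line) and a dotted line at 1. Means were 0.497, 1.09, 0.654 and 1.42 from left to right.

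SRD5A2, the isoenzyme that predominates in normal prostate, was nearly undetected. It had 0 counts in all 6 nonspecific libraries, which allows up to 0.0486 CPM in nonspecific vehicle and 0.0386 CPM in nonspecific DHT (3 counts over a group, counting error only). It had 1 count in paxillin vehicle replicate 3 and 1 in paxillin DHT replicate 2. A difference between groups was not detectable at this depth.

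Among the 17beta-hydroxysteroid dehydrogenases, HSD17B4 and HSD17B11 rose with DHT in both arms. HSD17B4 (chr5:119452443-119637199, plus strand) encodes the peroxisomal D-bifunctional protein, which acts in beta-oxidation and can oxidise 17beta-hydroxysteroids. Its libraries stood at 213, 218 and 217 CPM in nonspecific vehicle and 317, 303 and 311 CPM in nonspecific DHT, and at 222, 225 and 231 CPM in paxillin vehicle and 320, 324 and 327 CPM in paxillin DHT. DHT and vehicle did not overlap, and the spread within a group was small. HSD17B4 rose by 0.52 ± 0.05 on the log2 scale under nonspecific siRNA (adjusted p = 3.7e-07, edgeR), or 1.44-fold, and by 0.52 ± 0.05 under paxillin siRNA (adjusted p = 4e-07, edgeR), or 1.43-fold. The siRNA groups of HSD17B4 did not overlap either, but those differences were 0.07 ± 0.05 and 0.06 ± 0.05 on the log2 scale (adjusted p = 0.418 and 0.503, edgeR).

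HSD17B11 responded to DHT and to the siRNA in opposite directions. It lies on chromosome 4 (chr4:87336610-87391386, minus strand) and encodes a short-chain dehydrogenase found on lipid droplets that can oxidise 3alpha-androstanediol to androsterone. Its start-site window is shown because this gene, alone of the 8, was called in all 4 pairwise comparisons. The window holds 18 CpG (capitals) and no AGAACA or TGTTCT.
HSD17B11, chr4:87391139-87391438: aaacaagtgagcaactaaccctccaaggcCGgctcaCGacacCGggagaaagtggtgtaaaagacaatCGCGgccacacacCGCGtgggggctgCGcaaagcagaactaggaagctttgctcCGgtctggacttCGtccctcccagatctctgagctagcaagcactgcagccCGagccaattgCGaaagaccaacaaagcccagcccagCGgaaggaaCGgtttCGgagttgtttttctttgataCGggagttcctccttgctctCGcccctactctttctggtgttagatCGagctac
Libraries stood at 7.09, 5.42 and 5.90 CPM in nonspecific vehicle and 11.7, 11.1 and 10.8 CPM in nonspecific DHT. They stood at 4.27, 3.83 and 3.91 CPM in paxillin vehicle and 8.97, 6.53 and 7.22 CPM in paxillin DHT. Nonspecific DHT was above all other libraries and paxillin vehicle below all others, while nonspecific vehicle and paxillin DHT overlapped.

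HSD17B11 rose with DHT by 0.90 ± 0.14 on the log2 scale (adjusted p = 4.4e-05, edgeR), or 1.86-fold, under nonspecific siRNA and by 0.92 ± 0.14 (adjusted p = 4.4e-05, edgeR), or 1.90-fold, under paxillin siRNA. With paxillin siRNA it fell by 33.6% in vehicle, a log2 fold change of -0.59 ± 0.15 (adjusted p = 0.0086, edgeR), and fell by 32.3% in DHT, a log2 fold change of -0.56 ± 0.13 (adjusted p = 0.0079, edgeR). All 4 calls held in the 20 alternatives run for each, with adjusted p no higher than 0.049. The summed neuroendocrine markers (SYP, INSM1 and CHGA) were 3.18 to 4.07 CPM in nonspecific vehicle, 5.32 to 7.18 CPM in nonspecific DHT, 1.63 to 2.69 CPM in paxillin vehicle and 2.64 to 5.60 CPM in paxillin DHT, so their groups were ordered much like those of HSD17B11. CHGA, a defining marker of those cells, had 0 to 2 counts a library, and the part of these markers in the result was not tested.

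HSD17B10 (chrX:53431258-53434373, minus strand) encodes a mitochondrial dehydrogenase that oxidises 3alpha-androstanediol to DHT, takes part in isoleucine breakdown and is a subunit of mitochondrial RNase P. Its libraries stood at 119, 113 and 121 CPM in nonspecific vehicle and 130, 141 and 134 CPM in nonspecific DHT, without overlap. They stood at 115, 113 and 109 CPM in paxillin vehicle and 131, 124 and 108 CPM in paxillin DHT, with overlap. HSD17B10 rose by 0.20 ± 0.07 on the log2 scale (adjusted p = 0.025, edgeR) with DHT under nonspecific siRNA, and this call was lost with upper-quartile scaling (0.13, adjusted p = 0.131) and without nonspecific vehicle replicate 2 (0.17, adjusted p = 0.096) or nonspecific DHT replicate 2 (0.17, adjusted p = 0.102). Over all 20 alternatives its adjusted p ran from 0.0089 to 0.131. Under paxillin siRNA the difference was 0.11 ± 0.07 (adjusted p = 0.222, edgeR), which became 0.18 (adjusted p = 0.040, edgeR) without paxillin DHT replicate 3, the lowest of its group. Paxillin against nonspecific siRNA differed by -0.07 ± 0.07 in vehicle and -0.16 ± 0.07 in DHT (adjusted p = 0.522 and 0.127, edgeR), and the latter was -0.22 (adjusted p = 0.046, edgeR) without paxillin DHT replicate 1.

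HSD17B6 (chr12:56752161-56787790, plus strand) encodes an oxidative 3alpha-hydroxysteroid dehydrogenase that restores DHT from 3alpha-androstanediol. It was low, at 1.30, 1.36 and 1.54 CPM in nonspecific vehicle, 1.11, 3.05 and 1.91 CPM in nonspecific DHT, 1.22, 1.09 and 1.23 CPM in paxillin vehicle and 1.64, 1.10 and 1.44 CPM in paxillin DHT. Nonspecific DHT held both the highest library of all and one below every nonspecific vehicle library. HSD17B6 passed no test, with 0.51 ± 0.30 on the log2 scale for DHT under nonspecific siRNA (adjusted p = 0.186, edgeR). Without nonspecific DHT replicate 1 that value was 0.80 (adjusted p = 0.028, edgeR), within 0.028 to 0.803 over the alternatives. PRIM1 overlaps HSD17B6 on the opposite strand with 125 to 355 counts a library, and the strand setting of the counting is not given in the sources used here, so reads of the overlap cannot be told apart.

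Of the genes for earlier steps, HSD3B1 (chr1:119507198-119515054, plus strand), whose enzyme turns DHEA into androstenedione, was rare and varied widely. The more upstream of its 2 overlapping RefSeq windows is shown as the contrast to the reductases. Each of the 2 holds 1 CpG (capitals) and no AGAACA or TGTTCT, and 3.96% of all windows hold fewer CpG.
HSD3B1, chr1:119506953-119507252: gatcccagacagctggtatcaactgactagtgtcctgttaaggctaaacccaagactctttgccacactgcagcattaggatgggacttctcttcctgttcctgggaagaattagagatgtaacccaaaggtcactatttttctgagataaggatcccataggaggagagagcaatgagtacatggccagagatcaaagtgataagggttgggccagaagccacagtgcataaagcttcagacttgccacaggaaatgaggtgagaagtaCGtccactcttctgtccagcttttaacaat
Raw counts were 4, 20 and 12 in nonspecific vehicle and 1, 4 and 7 in nonspecific DHT. They were 22, 50 and 111 in paxillin vehicle and 13, 12 and 27 in paxillin DHT, so paxillin vehicle replicate 3 held more HSD3B1 counts than the other 2 libraries of its group together. In CPM the vehicle and DHT groups did not overlap under nonspecific siRNA but did under paxillin siRNA, and the siRNA groups overlapped in vehicle but not in DHT.

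With DHT under paxillin siRNA, HSD3B1 fell from 2.19 ± 1.68 to 0.649 ± 0.347 CPM (SD, n = 3), a log2 fold change of -1.75 ± 0.51 (adjusted p = 0.011, edgeR). Under nonspecific siRNA it was 0.517 ± 0.231 CPM in vehicle and 0.160 ± 0.110 CPM in DHT, a log2 fold change of -1.71 ± 0.80 (adjusted p = 0.099, edgeR). The latter passed with the replicate number as a block (adjusted p = 0.018). Paxillin siRNA raised HSD3B1 in vehicle by 1.98 ± 0.54 on the log2 scale (adjusted p = 0.015, edgeR), and in DHT the difference was 1.94 ± 0.76 (adjusted p = 0.10, edgeR), or 2.03 with the block (adjusted p = 0.0076).

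The HSD3B1 calls changed with the method and when single libraries were left out. With limma-voom the siRNA difference in vehicle was 1.66 (adjusted p = 0.079). In DESeq2 the DHT difference under nonspecific siRNA and the siRNA difference in DHT passed (adjusted p = 0.038 and 0.03). Both also passed without the filter (adjusted p = 0.0053 and 0.0012, edgeR). On the compared groups only, the siRNA difference in DHT passed (adjusted p = 0.039, edgeR). Without paxillin vehicle replicate 3 the DHT difference under paxillin siRNA was -0.98 (adjusted p = 0.136, edgeR) and the siRNA difference in vehicle 1.21 (adjusted p = 0.141, edgeR). Without nonspecific vehicle replicate 3 the latter was 1.84 (adjusted p = 0.063, edgeR). Without paxillin vehicle replicate 1 or 3, the DHT difference under nonspecific siRNA passed (adjusted p = 0.040 and 0.044, edgeR), as did the siRNA difference in DHT (adjusted p = 0.040 and 0.044, edgeR). Over the alternatives the 4 adjusted p ran from 0.0053 to 0.333 and from 5.8e-07 to 0.136 for DHT under nonspecific and paxillin siRNA, and from 2.3e-07 to 0.141 and from 0.0012 to 0.352 for the siRNA in vehicle and DHT. The direction was the same in all of them. The near-identical paralog HSD3B2 had 0 to 1 counts a library.

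AKR1C3, whose enzyme reduces androstenedione to testosterone, was too rare to test. Raw counts were 0, 1 and 2 in nonspecific vehicle, 2, 1 and 5 in nonspecific DHT, 8, 6 and 4 in paxillin vehicle and 5, 6 and 2 in paxillin DHT. In vehicle the siRNA groups did not overlap. The pooled ratio of paxillin to nonspecific siRNA there was 4.54, with a 95% exact interval of 1.33 to 24.1 that covers counting error only. In DHT the ratio was 1.45, with an interval of 0.558 to 4.04. The close paralogs AKR1C1 and AKR1C2 had 0 to 5 counts a library and AKR1C4 had 0, and reads could be split among them.

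STS (chrX:7219456-7354810, plus strand) is not a reductase or dehydrogenase but the steroid sulfatase that supplies DHEA from its sulfate. Its libraries stood at 12.7, 14.0 and 14.5 CPM in nonspecific vehicle and 16.6, 21.2 and 20.8 CPM in nonspecific DHT. They stood at 13.8, 15.4 and 16.7 CPM in paxillin vehicle and 20.6, 22.7 and 23.4 CPM in paxillin DHT. DHT lay above vehicle without overlap within each siRNA, and the siRNA groups overlapped. STS rose by 0.50 ± 0.11 on the log2 scale (adjusted p = 0.0011, edgeR), or 1.41-fold, under nonspecific siRNA and by 0.54 ± 0.10 (adjusted p = 0.00042, edgeR), or 1.45-fold, under paxillin siRNA. The siRNA differences were 0.14 ± 0.11 and 0.18 ± 0.10 on the log2 scale (adjusted p = 0.391 and 0.263, edgeR). Of 5 annotated STS windows, 2 held 1 half-site each, with the first base at -105 and -249 from their own starts. These were chrX:7147040-7147339 and chrX:7251994-7252293, away from the gene start given above, whose window (chrX:7219206-7219505) held none. No window of the other 8 genes with an entry held one, but each of those had only 1 or 2 windows. Of all windows, 14.8% hold a half-site, so nothing is read from this.

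**Figure D4:**
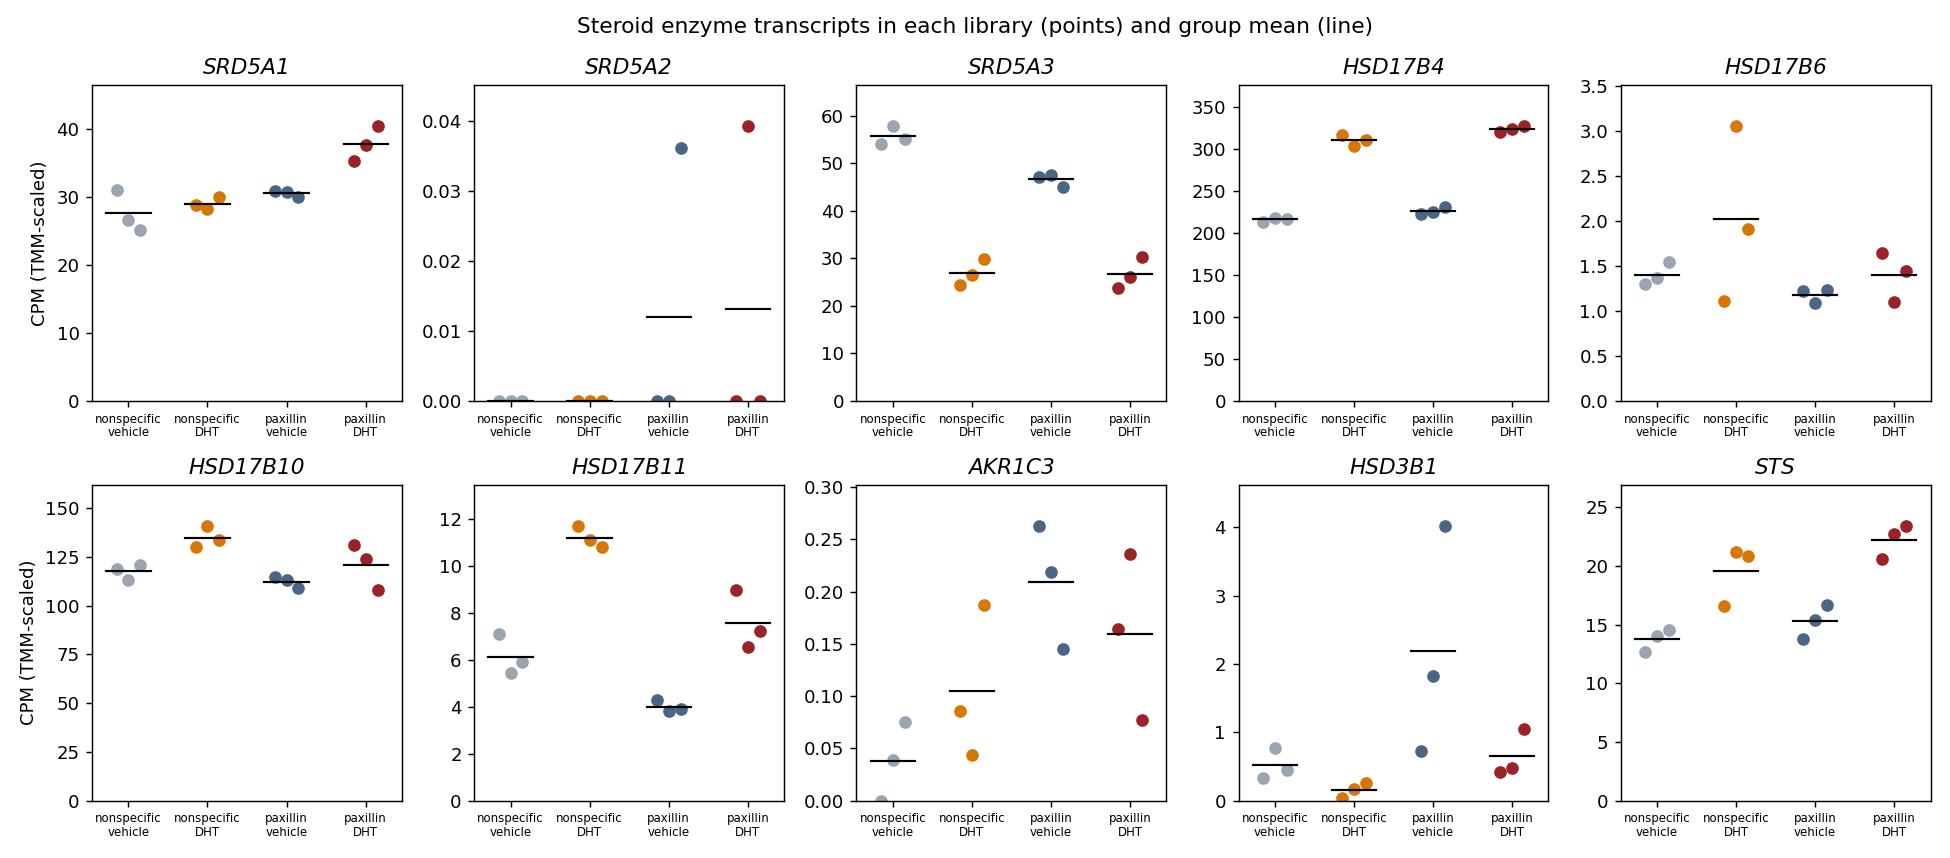
CPM of steroid enzyme transcripts in each library (points) with the group mean (line), 1 panel per gene with its own axis from 0. Within each siRNA, DHT sits below vehicle for SRD5A3 and above it for HSD17B4, HSD17B11 and STS, and 1 paxillin vehicle library of HSD3B1 stands at 4.02 CPM.

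Whether the siRNA altered the DHT response was tested by the interaction. None of the 8 genes passed in edgeR, none reached an unadjusted p under 0.05, and none passed in DESeq2, limma-voom or with the replicate block, beside 0.0496% of all tested genes (8 of 16115). The values nearest to the threshold were 0.22 ± 0.11 for SRD5A1 and 0.24 ± 0.12 for SRD5A3 on the log2 scale (unadjusted p of 0.059 and 0.060, adjusted p = 0.587 for both, edgeR). The SRD5A1 response under paxillin siRNA alone, and the weaker SRD5A3 response there, are therefore not shown to differ between the siRNAs. The interaction was -0.01 ± 0.07 for HSD17B4, 0.03 ± 0.19 for HSD17B11 and 0.04 ± 0.15 for STS on the log2 scale.

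Across the 12 libraries the log2 CPM of SRD5A3 and HSD17B4 had a Pearson r of -0.97, and those of HSD17B4 and STS one of 0.91. SRD5A1 had r of -0.51 with SRD5A3, -0.18 with HSD17B10 and 0.05 with HSD17B11. The points share 4 group means and the same libraries, so these values describe the group pattern. Among 9989 other genes of at least 5 CPM with a symbol annotated as protein-coding, those most like SRD5A3 were CCDC14 and PMS2 (both 0.991) and SCYL2 (0.99). Most like HSD17B4 were GNMT, ACSL3 and STEAP4 (all 0.998), most like HSD17B11 were CALU (0.988), ABHD2 (0.981) and MAP7D1 (0.978), and most like STS were PPFIBP2 (0.98), RRP36 and SC5D (both 0.974). For SRD5A1 they were CIPC (0.938), E2F5 and ACAD8 (both 0.925), and for HSD17B10 they were PSMB7 (0.939), HIGD2A (0.935) and LRRC61 (0.924).

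The genes around each enzyme were taken from 9 lists. Their counts stand beside the shares of all tested genes given above, 21.6% rising and 18.9% falling with DHT under nonspecific siRNA and 20.1% and 17.9% under paxillin siRNA, with an all-gene median of -0.01 in both. No list was tested against other genes, so the counts are descriptions. Of 14 genes of dolichol and the N-glycan lipid carrier, the pathway that SRD5A3 feeds, 11 rose and 0 fell with DHT under nonspecific siRNA and 10 rose and 0 fell under paxillin siRNA, with list medians of 0.31 and 0.26 on the log2 scale. ALG2, a mannosyltransferase, rose from 57.2 ± 2.25 to 90.5 ± 5.85 CPM (SD, n = 3), and DPM3, a subunit of dolichol-phosphate mannose synthase, from 29.6 ± 2.58 to 41.0 ± 4.32 CPM, both under nonspecific siRNA. ALG1, another mannosyltransferase, rose 1.38-fold there. DOLK, dolichol kinase, rose from 84.8 ± 5.04 to 108 ± 8.40 CPM and NUS1, a subunit of the polyprenol-making transferase, from 34.9 ± 1.04 to 47.5 ± 3.07 CPM under paxillin siRNA. In the main test SRD5A3 thus fell while most genes of this list rose. DHDDS, DOLPP1 and MPDU1 were called in neither arm, and ALG1 was not called under paxillin siRNA. The DHDDS differences were -0.06 (adjusted p = 0.61, edgeR) and 0.09 (adjusted p = 0.417, edgeR) on the log2 scale. With upper-quartile scaling 8 and 4 genes of the list rose. Under nonspecific siRNA 8 to 11 rose when single libraries were left out. Under paxillin siRNA 6 rose without any 1 of paxillin vehicle replicates 1 and 3 or paxillin DHT replicates 2 and 3.

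**Figure D5:**
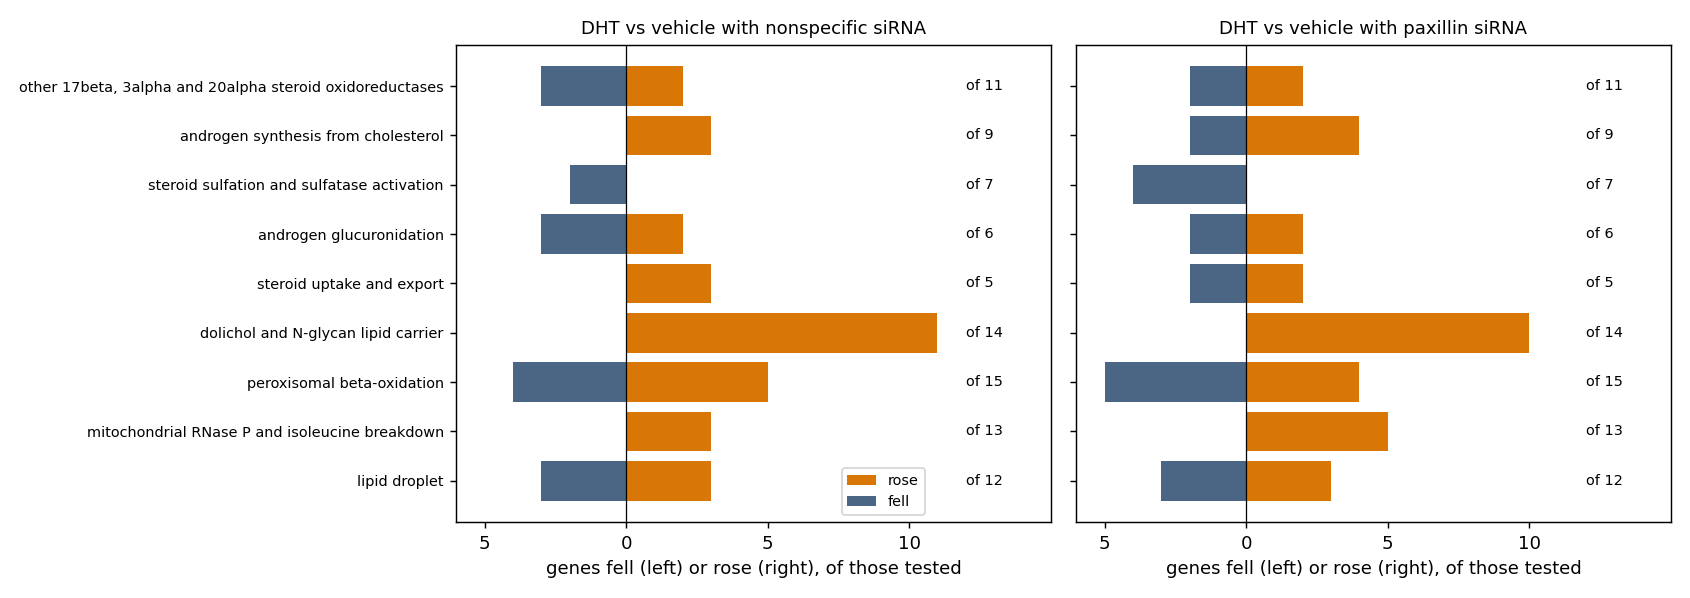
Number of genes of each list that fell (left of 0) or rose (right of 0) with DHT at an adjusted p under 0.05, with the number tested at the right. The dolichol list has 11 and 10 rising and no falling genes, and the other lists hold fewer calls or calls in both directions.

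Of 15 genes of peroxisomal beta-oxidation, where HSD17B4 acts, 5 rose and 4 fell under nonspecific siRNA, and 4 rose and 5 fell under paxillin siRNA. ECI2, an enoyl-CoA isomerase, rose from 150 ± 4.92 to 488 ± 11.9 CPM and from 178 ± 3.45 to 527 ± 32.0 CPM (SD, n = 3), and ACAA1, a thiolase, rose 1.58- and 1.50-fold. EHHADH, the L-bifunctional protein, fell 1.52- and 1.81-fold, the opposite direction to HSD17B4. CRAT, carnitine acetyltransferase, fell 1.54- and 1.55-fold, and ABCD3, a transporter of the peroxisomal membrane, fell 1.17- and 1.18-fold. The oxidase genes ACOX3 and ACOX2 rose 1.17-fold under nonspecific and 1.49-fold under paxillin siRNA. These counts, which are not far from the shares of all genes, moved with single libraries. Under nonspecific siRNA 2 rose and 4 fell without nonspecific vehicle replicate 2, 3 and 2 without nonspecific vehicle replicate 1 or nonspecific DHT replicate 1, 3 and 4 without nonspecific DHT replicate 2, and 3 and 3 without nonspecific DHT replicate 3. Under paxillin siRNA 2 rose and 4 fell without paxillin vehicle replicate 1 or paxillin DHT replicate 3, 3 and 3 without paxillin vehicle replicate 2, 5 and 2 without paxillin DHT replicate 1, and 4 and 3 without paxillin DHT replicate 2. Of 13 genes of a list named for mitochondrial RNase P and isoleucine breakdown, the settings of HSD17B10, 3 and 5 rose and 0 fell. Some genes of this list, such as ACAD8, act outside these settings. TRMT10C, an RNase P subunit, rose 1.28- and 1.25-fold. DBT, a subunit of the branched-chain ketoacid dehydrogenase, rose 1.22- and 1.37-fold, and ACAD8, an acyl-CoA dehydrogenase of valine breakdown, 1.23- and 1.57-fold. Without nonspecific vehicle replicate 1, 1 gene of that list fell under nonspecific siRNA. Of 12 lipid droplet genes, the setting of HSD17B11, 3 rose and 3 fell in each arm, with PNPLA2, a triglyceride lipase, up 1.50- and 1.36-fold and PLIN4 down 2.41- and 2.18-fold. PLIN3, a droplet coat protein, rose 1.2- and 1.14-fold and AUP1 1.27- and 1.16-fold, and BSCL2, which encodes seipin, fell 1.45- and 1.37-fold. METTL7A fell 1.43-fold under nonspecific siRNA, and DGAT2, a triglyceride synthase, fell 1.17-fold under paxillin siRNA. Without paxillin DHT replicate 3, 1 droplet gene rose and 4 fell under paxillin siRNA.

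Of 11 tested genes among 20 other steroid oxidoreductases, 2 rose and 3 fell under nonspecific siRNA, and 2 rose and 2 fell under paxillin siRNA, not far from the shares of all genes. AKR1D1, the 5beta-reductase, had 0 counts in nonspecific vehicle and 15, 39 and 28 in nonspecific DHT, at least 19.3-fold higher by the lower limit of the exact 95% interval of the pooled counts (counting error only). In paxillin vehicle and paxillin DHT it had 4 and 93 counts in all. RDH16, a short-chain dehydrogenase, rose from 1.07 ± 0.204 to 2.80 ± 0.437 CPM and from 2.43 ± 0.329 to 6.93 ± 1.11 CPM (SD, n = 3). HSD11B2, which inactivates cortisol, fell 1.43- and 1.83-fold, HSD17B7 fell 1.35- and 1.21-fold, and CBR4, a carbonyl reductase, fell 1.34-fold under nonspecific siRNA. The HSD17B7 call under paxillin siRNA was lost without paxillin vehicle replicate 1 or paxillin DHT replicate 1, which left 1 falling gene. Of 9 tested genes for synthesis from cholesterol, 3 rose and 0 fell, and 4 rose and 2 fell. CYP11A1, the side-chain cleavage enzyme, had 5, 6 and 3 counts in nonspecific vehicle and 90, 92 and 76 in nonspecific DHT, and CYB5A, cytochrome b5, rose 1.58- and 1.38-fold. TSPO, a mitochondrial outer membrane protein, rose 1.54-fold under nonspecific siRNA. Under paxillin siRNA STARD4, a cholesterol carrier, rose 1.25-fold, and FDX1 and FDXR, the ferredoxin and its reductase, fell 1.33- and 1.40-fold. CYP17A1, which makes DHEA, had 0 to 2 counts a library.

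For conjugation, 2 of 6 tested glucuronidation genes rose and 3 fell under nonspecific siRNA, and 2 rose and 2 fell under paxillin siRNA. UGT2B17 and UGT2B15, which glucuronidate DHT, fell from 4.61 ± 1.40 to 0.928 ± 0.483 CPM and from 2.38 ± 0.902 to 0.159 ± 0.0918 CPM under nonspecific siRNA (SD, n = 3), and UGDH, which makes their cosubstrate, rose 1.58- and 1.78-fold. UGT2B28 rose, with 1 count in every nonspecific vehicle library and 10, 6 and 21 in nonspecific DHT, a pooled ratio of 10.9 (95% exact interval 3.46 to 55.4, counting error only), and 6.30-fold under paxillin siRNA. UGP2, which makes UDP-glucose, fell 1.19-fold under nonspecific siRNA. These UGT2B genes are near-identical, so reads could be split among them. Of 7 tested genes of sulfation and sulfatase activation, 0 rose and 2 fell, and 0 rose and 4 fell, with PAPSS1, which makes the sulfate donor, down 1.37- and 1.14-fold. PAPSS2 was also called in both arms, down 4.92- and 4.01-fold, but had only 1 to 31 counts a library. SULT1A1, a sulfotransferase, and SUMF1, which activates sulfatases, fell 1.26- and 1.16-fold under paxillin siRNA. The sulfation counts were 1 without nonspecific vehicle replicate 2 or nonspecific DHT replicate 1 or 3, and 2 without paxillin DHT replicate 1 or 2. The PAPSS1 call under paxillin siRNA was lost without paxillin vehicle replicate 2 or paxillin DHT replicate 1 or 2. Of 5 tested genes of steroid uptake and export, 3 rose and 0 fell, and 2 rose and 2 fell, and the 2 falls were 0 without paxillin vehicle replicate 3 or paxillin DHT replicate 1. They were 1 without any 1 of paxillin vehicle replicate 2, paxillin DHT replicates 2 and 3 or nonspecific DHT replicates 1, 2 and 3. These falls were those of SLCO3A1 (1.18-fold) and ABCG2 (2.00-fold). The exporter gene ABCC4 rose from 153 ± 8.84 to 918 ± 20 CPM and from 216 ± 27.0 to 1060 ± 65.7 CPM (SD, n = 3), or 5.99- and 4.89-fold. ABCC1, another exporter gene, rose 3.35- and 2.45-fold, and the carrier gene SLCO4A1 rose 1.34-fold under nonspecific siRNA.

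Several of the smaller changes in these lists were lost when a single library was left out. Under nonspecific siRNA this held for ABCD3 and ACOX3 (nonspecific vehicle replicates 1 and 2 and nonspecific DHT replicates 1 and 3, and for ACOX3 also paxillin vehicle replicate 2 and paxillin DHT replicate 2). It held for ACAD8 (nonspecific vehicle replicate 3 and nonspecific DHT replicate 2) and UGP2 (nonspecific vehicle replicates 2 and 3 and nonspecific DHT replicate 1). Under paxillin siRNA it held for ABCD3 (paxillin vehicle replicate 3 and paxillin DHT replicates 1 and 2), ACOX2 (paxillin vehicle replicate 1 and paxillin DHT replicate 3) and AUP1 (paxillin vehicle replicate 2 and paxillin DHT replicate 3). PLIN3 lost its call there without any 1 of paxillin vehicle replicates 1 and 3 and paxillin DHT replicates 1, 2 and 3, and STARD4 without any 1 of paxillin vehicle replicates 1 and 2 and paxillin DHT replicates 2 and 3. SUMF1 lost it without any 1 of the 3 nonspecific DHT libraries, the 3 paxillin DHT libraries or paxillin vehicle replicates 1 and 3. SLCO3A1 lost it without any 1 of the 3 nonspecific DHT libraries, paxillin vehicle replicates 2 and 3 or paxillin DHT replicates 1 and 3, and ABCG2 without paxillin vehicle replicate 3 or paxillin DHT replicate 1 or 2.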

How the data were processed

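RNA of 12 C4-2 libraries was sequenced from a stranded mRNA kit, per the labels' protocols. The authors deposited raw counts of 56269 gene symbols, and the submitters' processing notes name Trimmomatic 0.36, STAR 2.5.2b, featureCounts of Subread 1.5.0p3 and GRCh38. Neither the annotation release nor the strand setting is given in the sources used here.

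Tests used edgeR 4.0.16 in R 4.3.3. Low counts were filtered by filterByExpr (minimum count 10, minimum total 15), which left 16115 genes, and TMM scaled the libraries. A quasi-likelihood fit with 1 mean per group gave 4 pairwise comparisons and the interaction, with Benjamini-Hochberg adjustment over all genes tested. SE come from the F statistic. The SRD5A1 to SRD5A3 ratio had an exact permutation test. Coordinates and lengths are those of GENCODE 29, and start-site windows those of RefSeq on GRCh38.p14, which had entries for 9 of the 10 genes. Floors are 3 counts over a group. Intervals are exact conditional binomial ones at 95%. The script was tested on simulated counts.

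The members and lists were chosen with earlier results of these data known. The text names all members, and of each list and comparison up to 3 called genes with the largest rise and 3 with the largest fall, if a group mean reached 1 CPM. PXN, FKBP5, KLK3 and TMPRSS2 check the labels. Up to 3 genes most correlated with a called member of at least 5 CPM are named, leaving out clone, LINC, microRNA, pseudogene and antisense names. Only symbols that GENCODE 29 lists as protein-coding were compared. Of 16115 tested symbols 13977 matched GENCODE 29, so genes under other symbols were not compared. CYP17A1, HSD3B2, AKR1C1, AKR1C2, AKR1C4, PRIM1, MPDU1 and PAPSS2 were named outside this rule, after their values were seen.

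Replicate numbers are shared by the 4 groups. The 18 pairs with the same number had correlated deviations from group means (10699 genes, r of 0.14 to 0.48, median 0.27). The 36 pairs with different numbers had r of -0.43 to 0.21 (median -0.11). Centring each group on its mean ties these values to those of the same number, so they are not separate evidence. The numbers may therefore pair the samples. The main tests did not use this pairing, which entered only the replicate block and the paired form of the ratio test. Between replicates of a group the chi-square over its degrees of freedom was 5.67 to 17, more than sampling noise gives. The results were recomputed with upper-quartile or RLE scaling, without the filter, in DESeq2 1.42.0 and limma-voom (limma 3.58.1), with a replicate block, on the compared groups only, at an adjusted p below 0.01, and without each library in turn.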

Additional observations from a re-analysis of the deposited data

How the results depend on the processing

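Of 791 values of the members under the alternatives, 734 kept their direction and their side of the threshold. Another 18 lost a call, 15 gained one and 24 changed sign, all 24 of them uncalled. The replicate block changed no call of a member other than those of HSD3B1 given above, and moved the count of all genes for paxillin siRNA in DHT from 2149 to 3486 and for the interaction from 8 to 97. An adjusted p under 0.01 left 1 member and 1651 of all genes for paxillin siRNA in vehicle, 954 genes in DHT and 0 for the interaction, which gave 142 genes without the filter, 54 with DESeq2 and 0 with limma-voom. Leaving out each library gave 4 to 6 members for DHT under nonspecific siRNA, 5 to 7 under paxillin siRNA, 1 to 3 for the siRNA in vehicle, 2 to 3 in DHT and 0 for the interaction. The siRNA count in vehicle was 1 without nonspecific vehicle replicate 3 or paxillin vehicle replicate 3. Over all genes the ranges were 5503 to 6714, 5139 to 6363, 1848 to 3524, 1178 to 2417 and 0 to 26. The log2 ratio difference of SRD5A1 to SRD5A3 ran from 1.09 to 1.18. Of the sign changes 21 were in the interaction, where values ran without single libraries from -0.12 to 0.12 for HSD17B11, -0.57 to 0.73 for HSD3B1, -0.06 to 0.10 for STS, -0.03 to 0.01 for HSD17B4 and -0.56 to 0.13 for HSD17B6. With limma-voom HSD17B11 was at -0.00 and HSD3B1 at 0.30, and with the block HSD3B1 was at 0.04. The other 3 were in the SRD5A3 difference between siRNAs in DHT, which ran from -0.12 to 0.07. The cause of the sign changes was not tested. Upper-quartile scaling shifted the median of all genes by less than 0.1 on the log2 scale. Depth limits SRD5A2 and AKR1C3, which had too few counts for the filter.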

Other observations

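Paxillin siRNA also moved genes of the lists around the enzymes. In vehicle, RDH16 rose from 1.07 ± 0.204 to 2.43 ± 0.329 CPM and in DHT from 2.80 ± 0.437 to 6.93 ± 1.11 CPM (SD, n = 3), the adjusted p being 0.0011 and 0.00015 in edgeR. RDH16 thus rose with both agents, where HSD17B11 rose with DHT and fell with the siRNA. ACAD8, an acyl-CoA dehydrogenase of branched-chain amino acid breakdown, rose from 42.6 ± 2.50 to 52.9 ± 3.94 CPM in vehicle and from 52.0 ± 3.76 to 83.0 ± 9.58 CPM in DHT (SD, n = 3). ACOX2, the peroxisomal oxidase of branched side chains, rose 1.57- and 1.98-fold. TSPO, a mitochondrial outer membrane protein, rose 1.39-fold in vehicle, HSD17B7 fell 1.36-fold there, and CYP11A1 fell 2.11-fold in DHT. UGT2B15 rose from 2.38 ± 0.902 to 6.10 ± 3.41 CPM in vehicle and from 0.159 ± 0.0918 to 0.979 ± 0.581 CPM in DHT, the adjusted p being 0.022 and 0.029 in edgeR. The UGT2B15 call was lost in vehicle without nonspecific vehicle replicate 1 or 2 or paxillin vehicle replicate 3, and in DHT without nonspecific DHT replicate 1 or 2 or paxillin DHT replicate 2 or 3. The CYP11A1 call was lost without the same 4 DHT libraries. In vehicle, the ACAD8 call was lost without nonspecific vehicle replicate 3 or paxillin vehicle replicate 3, and the ACOX2 call without nonspecific vehicle replicate 2 or paxillin vehicle replicate 3.

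Of the other genes named by the same rule, FDX1, SULT1A1, ABCC4, ABCG2, ALG1, ACAA1, SLC27A2, ELAC2, HADH, DGAT2 and CIDEB rose with the siRNA in vehicle, by 1.16-fold (ELAC2) to 2.75-fold (ABCG2). STARD4, UGDH, UGP2, DHDDS, DOLPP1 and DPM1 fell there, by 1.19-fold (DHDDS) to 1.34-fold (UGP2). In DHT, PAPSS1, UGT2B28, AMACR, SLC27A2, DLD, HADH, METTL7A and CIDEB rose, by 1.14-fold (DLD) to 2.24-fold (UGT2B28), and FDXR, SLCO3A1, ABCC1, DOLPP1, DPM1 and PEX5 fell, by 1.19-fold (DOLPP1) to 1.28-fold (ABCC1). For the siRNA in DHT, leaving out single libraries moved 9 of the 9 counts of called genes per list by over 1.5 times, and each of the 12 libraries moved at least 1 of them. In vehicle, 3 of the 9 counts moved, by 4 of the 12 libraries.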
